A study of Mus musculus with 26 samples.

Results

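The retinoic acid (RA) arm of the Tdpoz-SE knockout was described across all genes, as the difference between 2 libraries labelled SE KO RA and 2 libraries labelled RA, which are 4 of the 26 poly(A) RNA-seq libraries of the series. They were chosen by their sample titles. All 4 come from R1 mouse embryonic stem cells (mESCs) kept with leukemia inhibitory factor (LIF) on gelatin and exposed to RA at 0.53 µM for 48 h. The RA libraries are from unmodified cells, and the SE KO RA libraries from cells in which Tdpoz-SE, a super-enhancer in the Tdpoz gene cluster of chromosome 3, had been deleted with CRISPR-Cas9. How many clones the knockout cells represent was not given. The genotype label of SE KO RA replicate 1 reads WT, against its title, so results are also given without that library. No SE KO library without an inducer was analysed, so a difference that the knockout cells already had before RA and a different reaction to RA cannot be told apart. Other libraries are used beside these where they bear on a result, each group with 2 replicates: unmodified cells given DMSO, untreated ESC, Dux KD cells given the same RA treatment, and SE KO and unmodified cells given either doxycycline-induced Dux (Dux OE, 4 µg/mL doxycycline for 24 h) or PlaB (4 nM for 4 days).

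Super-enhancers are long stretches of clustered enhancers that drive strong expression of nearby genes. DUX is a transcription factor of the early mouse embryo that switches on the 2-cell-stage (2C) programme, which includes the Zscan4, Usp17l, Obox, Tcstv and Tdpoz families and is used by rare 2C-like cells in mESC cultures. RA binds nuclear receptors of the RAR and RXR families, switches on Hox genes and the enzymes that degrade RA itself, and drives mESCs out of pluripotency towards neural and endodermal fates.

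The libraries held 20958447 and 20194105 counts in RA and 20760712 and 22716564 in SE KO RA, so 3 counts, taken as the floor of detection, correspond to between 0.127 and 0.14 CPM (counts of a gene per 1e+06 counts of the library, scaled with the TMM factors). Of 55291 genes in the table, 20953 passed the filter on low counts and were tested. A gene was called when the edgeR adjusted p was under 0.05 and the log2 fold change was at least 1 in size, and all log2 fold changes are SE KO RA minus RA unless another pair is named. Mitochondrial genes took 3.32% and 3.72% of the counts in RA and 2.82% and 2.66% in SE KO RA. The median log2 fold change also ran with transcript base composition, from -0.19 in the lowest of 10 bins of GC content to 0.33 in the highest. The part of base composition in the results below was tested only by a scaling factor per GC bin.

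Whole chromosomes differed between the 4 libraries, which stands beside every result below. Over genes with a mean of at least 1 CPM, the median log2 fold change was -0.39 for the 876 genes of chromosome 1 and -0.34 for the 553 genes of chromosome 13, and it was 0.38 on chromosome 2, 0.32 on chromosome 15, 0.29 on chromosomes 12 and 17 and 0.27 on chromosome 8. On chromosome 1, 2.63% of the genes were called higher and 16.6% lower, while on chromosome 2 these shares were 13.9% and 3.3%. The shift on chromosome 1 was present along its length, with medians in 4 equal blocks of its genes between -0.44 and -0.32. On chromosome 12 the block medians were 0.54, 0.29, 0.02 and 0.29, so not every shift was even along its chromosome. Against DMSO, in contrast, the SE KO RA libraries had no autosome with a median beyond 0.2 in size, and the mean absolute autosome median was 0.0663, the smallest of their distances to the other 12 groups. Against the RA libraries it was 0.186, against SE KO Dux OE 0.181 and against SE KO PlaB 0.187, whereas SE KO Dux OE and SE KO PlaB differed from each other by only 0.0383 and SE KO Dux OE from RA by 0.0465. By chromosome the SE KO RA libraries thus sat with the DMSO libraries and apart from the other libraries labelled SE KO. The DMSO libraries themselves differed from RA by 0.1875 and from untreated ESC by 0.1545. DNA copy number was not measured. An alternative with a scaling factor for each library and chromosome is given beside the results it changes.

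**Figure D1:**
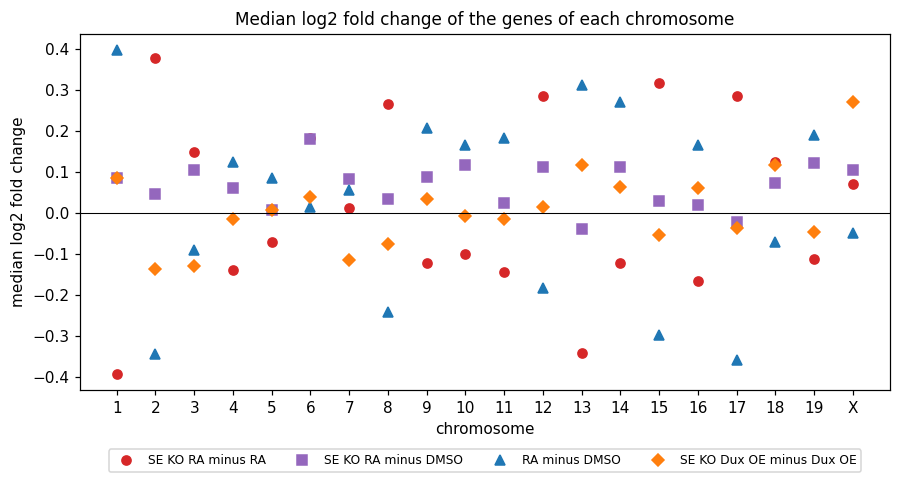
Median log2 fold change (vertical axis) of genes with at least 1 CPM on each chromosome (horizontal axis) for SE KO RA minus RA (circles), SE KO RA minus DMSO (squares), RA minus DMSO (triangles) and SE KO Dux OE minus Dux OE (diamonds). Circles run from -0.39 on chromosome 1 to 0.38 on chromosome 2, squares stay within 0.2 of 0 on the autosomes, and circles and triangles share the RA libraries.

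Over all genes, 1377 were called higher in SE KO RA (6.57% of those tested) and 2309 lower (11%), against a median log2 fold change of -0.04. With no minimum fold, 21.3% were higher and 24.7% lower. Without SE KO RA replicate 1, the library with the conflicting label, 1194 were called higher and 1858 lower. With a scaling factor for each library and chromosome, chosen after the data were seen, 1261 were called higher and 2192 lower, and these calls included 83.6% of the 3686 original ones. The lists with most of their members called were the 2C genes and the naive pluripotency factors, mainly lower, followed by the integrated stress response, with 8 of 16 genes higher.

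The 2C programme was lower in the SE KO RA libraries, and above its level in DMSO. Of 39 tested 2C genes, 31 were called lower and 0 higher (all genes: 11% lower, 6.57% higher), with a median log2 fold change of -2.91. The same list held 31 lower calls with a scaling factor per chromosome and 30 without SE KO RA replicate 1, and between 28 and 32 over all alternatives. The Zscan4 family, which encodes zinc-finger proteins that mark 2C-like cells and act on telomeres, summed to 984 and 863 CPM over 9 genes in RA, 102 and 102.5 in SE KO RA and 12.7 and 11.7 in DMSO. RA was thus 9.03-fold above SE KO RA, and the groups did not overlap. The members share much of their sequence, so the split of reads among them is uncertain. Zscan4d (chr7:11161374-11166159) stood at 280.2 and 242 CPM in RA and 26.7 and 24.6 in SE KO RA (log2 fold change -3.35 ± 0.13 SE, edgeR adjusted p = 4.82e-17).

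The Usp17l family, deubiquitinases arrayed on chromosome 7, changed more than Zscan4. Its 6 genes summed to 543.5 and 482 CPM in RA, 31.3 and 33.0 in SE KO RA and 1.59 and 1.15 in DMSO, a 15.9-fold difference between RA and SE KO RA. Usp17lb (chr7:104840257-104842603) went from 195 and 163 CPM to 6.84 and 6.898 (log2 fold change -4.70 ± 0.13, edgeR adjusted p = 4.50e-19), and Usp17la (chr7:104857009-104862667) from 166 and 161 to 6.56 and 7.91. These families too share reads between near-identical copies.

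Duxf3 (chr10:58229979-58232675), the Dux gene itself, had 49 and 59 counts in RA, 2 and 10 in SE KO RA, and 1 and 0 in DMSO. Its log2 fold change was -3.18 ± 0.50 (edgeR adjusted p = 1.13e-05), and no library of SE KO RA reached the lower RA library. Among other 2C genes at low level, Tcstv3 went from 2.33 and 1.72 CPM to 0.279 and 0.254 and Zfp352, a zinc-finger gene derived from a retroposon, from 1.28 and 1.63 to 0.419 and 0.296. AF067063 had 0.308 and 0.512 CPM in RA and no count in either SE KO RA library. Gm2016, a gene of the 2C list on chromosome 12, fell from 81.98 and 61.8 to 5.17 and 7.07 CPM. Obox6 and Gpr63 did not pass the test, with log2 fold changes of 0.10 and -0.33, and Obox3 at 0.176 and 0.0931 CPM in RA had no count in SE KO RA and an adjusted p of 0.0666 (edgeR). In bulk RNA, fewer 2C-like cells and less 2C RNA per cell cannot be told apart.

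These genes were higher in the RA libraries than in DMSO. In unmodified cells 34 of the 39 were called higher in RA than in DMSO, with a median log2 fold change of 6.08 (20.6% of all genes tested were called higher there), and in SE KO RA 27 were called higher than in DMSO, with a median of 2.98 (17.3% of all genes). These comparisons share libraries with the one above, so they are given side by side only. RA and DMSO also differed by chromosome (mean absolute autosome median 0.1875), and the part of RA itself in these differences was not tested. With scaling by library size alone, higher calls made up 76.8% of the calls of RA against DMSO instead of 66.5%. The genes called lower than in DMSO were 10.4% of those tested in RA and 9.88% in SE KO RA, and 15.7% were lower in SE KO RA than in untreated ESC.

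**Figure D2:**
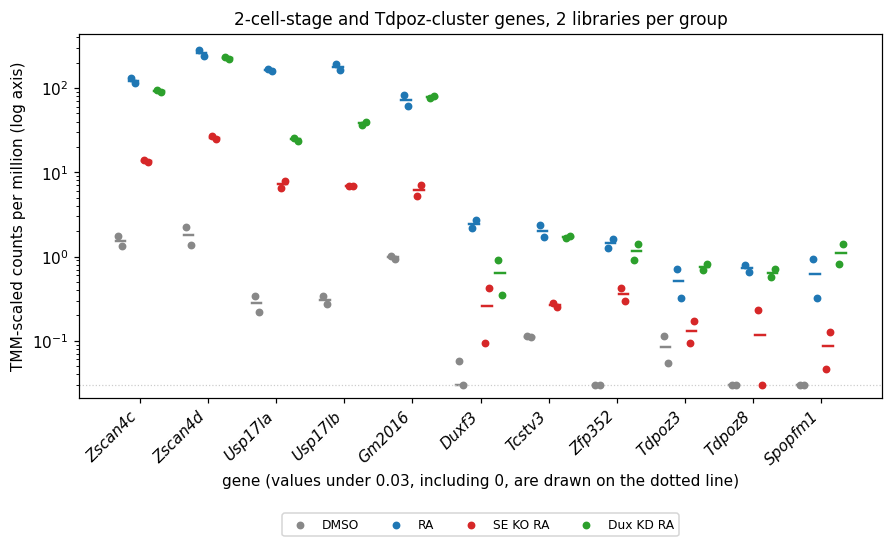
Expression (vertical log axis, TMM-scaled CPM) of 2C and Tdpoz-cluster genes (horizontal axis) in DMSO (grey), RA (blue), SE KO RA (red) and Dux KD RA (green), with 1 point per library and a bar at the mean of 2. The SE KO RA points of Zscan4d (26.7 and 24.6) lie between those of DMSO and RA.

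The Tdpoz and Spopfm genes, in whose cluster the deleted element lies, were close to the floor in every RA library. Tdpoz genes encode proteins with TRAF and POZ domains that act with ubiquitin ligases, and the Tdpoz and Spopfm genes of the table span chr3:93068823-94266784 (mm10). Their counts summed to 65 and 38 in RA and 12 and 14 in SE KO RA. Of 11 tested members of the list, 4 were called lower and 0 higher (all genes: 11% lower, 6.57% higher). Most of the 11 passed the filter only through other groups of the series. When only the RA and SE KO RA libraries were filtered and fitted, 2 members were tested and 1 was called lower. In the main fit, with 1 Mb to either side, 7 tested genes were called lower, all inside this span. They were the 4 list members, Tchh and the low-count Gm5541 and Gm9113. Tchh had 63 and 75 counts in RA and 32 and 26 in SE KO RA (log2 fold change -1.28). S100a11, also inside, stood at 46.0 and 44.7 CPM against 31.8 and 33.4 without a call. The genes outside the list were named after their values were seen. Tdpoz3 (chr3:93826020-93827117) had 16 and 7 counts in RA and 2 and 4 in SE KO RA (log2 fold change -1.92 ± 0.59, edgeR adjusted p = 0.00962), and it lost its call without RA replicate 1 (-1.25) or without SE KO RA replicate 1 (-1.58). Tdpoz8 had 18 and 14 counts in RA and 5 and 0 in SE KO RA (log2 fold change -2.64), a call lost without SE KO RA replicate 2 (-1.61). Tdpoz4, with 8 and 4 counts in RA and 4 and 7 in SE KO RA, overlapped between the groups (log2 fold change -0.15 ± 0.64, edgeR adjusted p = 0.876). Tdpoz6 had no count in any of the 4 libraries, while Dux KD RA held 1.15 and 1.296 CPM. Without SE KO RA replicate 1, 1 of the 11 was called lower, and 2 without RA replicate 1 or SE KO RA replicate 2.

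Beyond the cluster no neighbour was called lower, though changes under the minimum fold ran both ways. Within 1 Mb to either side of the cluster, 42 genes outside it were tested, of which 1 was called higher and 0 lower by edgeR. The 1 called higher was Tmod4, named after its values were seen. Them4 fell from 5.37 and 6.33 CPM in RA to 3.35 and 3.39 in SE KO RA. Its log2 fold change was -0.80 (edgeR adjusted p = 5.51e-04), under the minimum. Cdc42se1 rose from 54.7 and 51.5 to 87.6 and 87.4 CPM (0.72, edgeR adjusted p = 1.99e-06). Both were named after their values were seen. Inside the cluster, S100a10, an annexin partner in the same list, stood at 11.7 and 11.6 CPM in RA and 11.2 and 11.1 in SE KO RA. The table counts reads in genes, so the deletion itself could not be checked in it, and the deleted interval was not given in the sources used here.

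The naive pluripotency network was lower in SE KO RA. Of 20 naive factors, 14 were called lower and 2 higher (all genes: 11% lower, 6.57% higher), with a median log2 fold change of -1.43. Esrrb (chr12:86361117-86521628), an orphan nuclear receptor that sustains self-renewal, had 503 and 530.2 CPM in RA and 95.1 and 94.3 in SE KO RA (log2 fold change -2.45 ± 0.09, edgeR adjusted p = 5.58e-17). Klf4 (chr4:55527143-55532466), a reprogramming factor under STAT3, had 255 and 247 CPM in RA and 47.1 and 48.9 in SE KO RA (log2 fold change -2.38 ± 0.16, edgeR adjusted p = 5.66e-12). The 2 replicates of each group differed by far less than the groups in both genes, and DMSO was higher than both groups, at 1122 and 1198 CPM for Esrrb and 512 and 528 for Klf4. Tfcp2l1, a LIF target, fell from 1118 and 1135 to 393 and 367 CPM, Klf5 from 153 and 148 to 55 and 57.3, and Nr0b1, an X-linked partner of the network, from 22.7 and 19.4 to 5.49 and 5.97. Calcoco2 and Spic also fell, by 1.77 and 1.65 on the log2 scale. The 2 naive genes called higher were Dppa5a, an RNA-binding protein gene, at 707 and 649 CPM in RA and 1566 and 1559 in SE KO RA, and Klf2, named after its values were seen, at 142 and 154 in RA and 315 and 283 in SE KO RA. The call of Klf2 was lost without RA replicate 1 or SE KO RA replicate 1, with scaling by library size alone and with a scaling factor per chromosome or per GC bin, where Dppa5a was the 1 gene of the list called higher. Tet2, Pecam1 and Sox15 were not called.

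The core factors moved less. Among 16 core pluripotency genes, 4 were called lower and 1 higher (all genes: 11% lower, 6.57% higher), with a median of -0.61. Dppa2 (chr16:48303908-48319723), a chromatin factor that acts upstream of Dux, fell the most, from 233 and 241 CPM in RA to 24.8 and 27.1 in SE KO RA (log2 fold change -3.19 ± 0.09, edgeR adjusted p = 1.26e-19), and its level in SE KO RA was below that in DMSO, 110.2 and 117 CPM. Its partner Dppa4 fell from 63.1 and 63.9 to 26.01 and 28.01 CPM, L1td1, an RNA-binding protein gene, from 215 and 213 to 50.4 and 50.4, and Tdgf1, the Nodal co-receptor, from 902 and 939 to 376 and 402. Nanog, at 857 and 877 CPM in RA against 441 and 433 in SE KO RA, and Sox2, at 256 and 268 against 132 and 136, had adjusted p-values of 2.38e-11 and 5.00e-08 (edgeR) but log2 fold changes of -0.99 and -0.97, just under the minimum. Pou5f1, which encodes OCT4, was at 316 and 340.4 CPM in RA and 472 and 451 in SE KO RA (log2 fold change 0.49). Fgf4, an ERK-activating ligand, was called higher, from 39.8 and 42.3 to 86.5 and 81.9 CPM, a call lost with scaling by library size alone (0.99) and without RA replicate 1 or SE KO RA replicate 1.

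**Figure D3:**
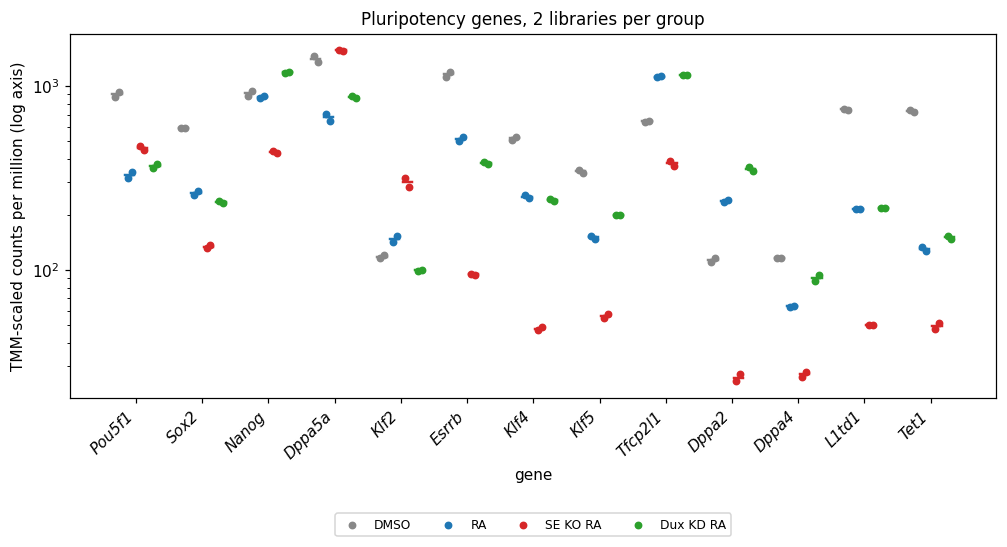
Expression (vertical log axis, TMM-scaled CPM) of pluripotency genes (horizontal axis), with 1 point per library and a bar at the mean of 2 in DMSO (grey), RA (blue), SE KO RA (red) and Dux KD RA (green). For Esrrb, Klf4, Klf5, Tfcp2l1, Dppa2, Dppa4, L1td1 and Tet1 the SE KO RA points are the lowest of the 4 groups, while for Dppa5a and Klf2 they lie above RA.

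Among genes known to act on Dux, 13.6% were called, all of them lower, while over all genes 11% were called lower and 6.57% higher. Of 22 regulators of Dux, 3 were called lower and 0 higher, with a median of -0.19: Dppa2 and Dppa4, already described, and Trp53 (chr11:69580359-69591873), which encodes p53 and fell from 259 and 276 to 88.3 and 78.4 CPM. Of 18 targets of p53, 2 were called higher and 2 lower, and none remained lower with a scaling factor per chromosome. Perp, a desmosome gene, rose by 1.32 on the log2 scale, Plk2, a kinase gene, fell by 1.27 (-0.95 with that factor), and Cdkn1a, the cell-cycle inhibitor, had 114 and 119.8 CPM in RA and 181 and 174 in SE KO RA without passing the minimum fold.

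Formative and primed genes, which mark the exit from the naive state, moved in both directions. Of 19 tested, 3 were called higher and 3 lower (all genes: 6.57% higher, 11% lower). Otx2, a driver of the formative state, went from 1.67 and 2.38 to 0.1396 and 0.212 CPM, and Grhl2, an epithelial enhancer factor, from 3.61 and 2.93 to 0.372 and 0.719. Fgf15, an FGF ligand, went from 0.793 and 1.397 to 12.4 and 14.1 CPM (log2 fold change 3.60 ± 0.26, edgeR adjusted p = 1.36e-11), below its 38.3 and 36.5 CPM in DMSO. Sox11 and the methyltransferase cofactor Dnmt3l were called higher, by 1.26 and 1.08 on the log2 scale, and Dnmt3l was at 0.98 with a scaling factor per GC bin.

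Genes of the retinoid pathway were above DMSO of unmodified cells in RA and in SE KO RA. Stra8, a retinoid target of the germline, stood at 755 and 814 CPM in RA and 746 and 781 in SE KO RA against 18.9 and 20.1 in DMSO (log2 fold change -0.04 ± 0.11, edgeR adjusted p = 0.815). Its RA and SE KO RA libraries overlapped. Of 23 receptors, enzymes and carriers of the pathway, 15 were called higher in RA than in DMSO (20.6% of all genes) and 12 in SE KO RA than in DMSO (17.3%). Between SE KO RA and RA, 1 was called higher and 5 lower (all genes: 6.57% higher, 11% lower), with a median of -0.14. Crabp2, the carrier that brings RA to its nuclear receptors, rose from 30.8 and 32.4 to 72.9 and 78.5 CPM. Rarb, a receptor gene and target of RA, fell from 10.9 and 9.18 to 3.77 and 4.697 CPM (log2 fold change -1.24 ± 0.26, edgeR adjusted p = 3.31e-04), and Aldh1a3, an enzyme of RA synthesis, from 1.45 and 1.63 to 0.279 and 0.296. With a scaling factor per chromosome 2 were called lower, and the calls of Rxrg, Cyp26c1 and Aldh1a2 were lost, at -0.83, -1.05 and -0.94. The list held 3 lower calls without RA replicate 1 or either SE KO RA library.

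The Hox clusters, which pattern the body axis and are classical RA targets, were above DMSO of unmodified cells in RA and in SE KO RA. Of 35 tested Hox genes, 34 were called higher in RA than in DMSO (median 5.70) and 31 in SE KO RA than in DMSO (median 5.26), against 20.6% and 17.3% of all genes. For SE KO RA against RA, 6.57% of all genes were called higher and 11% lower. Between the lines, 4 were higher and 7 lower, with a median of -0.22, and the 4 became 1 without RA replicate 2 or SE KO RA replicate 1 and 2 without either other library. The 11 Hoxa genes summed to 182 and 184 CPM in RA and 97.4 and 100 in SE KO RA, and the 10 Hoxb genes to 122 and 128 against 95.7 and 92.3. The 9 Hoxc genes summed to 27.0 and 25.2 CPM against 29.1 and 32.0, and the 9 Hoxd genes to 10.4 and 9.18 against 18.6 and 18.4. Hoxa7 fell from 15.7 and 16.4 to 5.398 and 5.59 CPM, Hoxa9 from 4.05 and 4.47 to 1.49 and 1.27, and Hoxb13 from 10.3 and 10.5 to 3.91 and 3.68. Hoxd4 was called higher from 3 and 6 counts in RA to 19 and 24, a call lost without any 1 of the 4 libraries. Of 12 Hox cofactors and Cdx genes 4 were higher and 0 lower, among them Cdx1, a posterior regulator, from 25.1 and 28.4 to 65.4 and 64.4 CPM, Pbx4 from 3.304 and 3.31 to 11.7 and 12.02, and Cdx4 from 2 and 4 counts to 28 and 25.

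**Figure D4:**
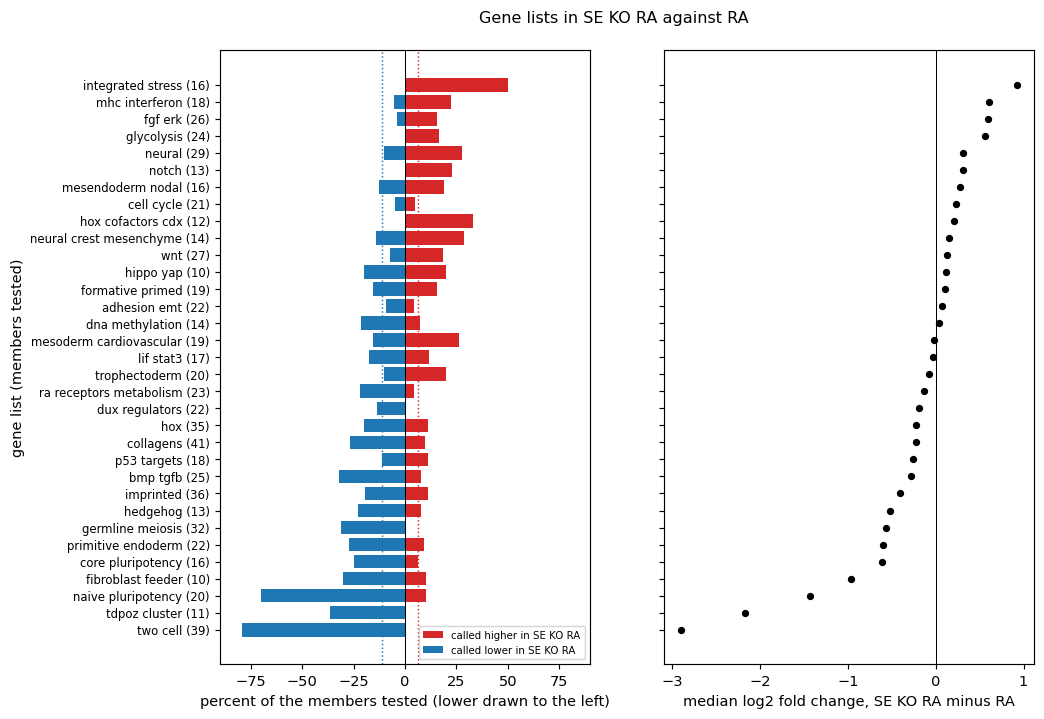
For each gene list (vertical axis, members tested in brackets), the left panel shows the percent of tested members called higher (red, right) or lower (blue, left) in SE KO RA, with dotted lines at 6.57% and 11% for all genes, and the right panel shows the median log2 fold change. The 2C list is lowest at -2.91 and the integrated stress list highest at 0.93.

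Of 22 genes of primitive endoderm and its derivatives, 6 were called lower and 2 higher, with a median of -0.60, while 11% of all genes were called lower and 6.57% higher. Foxa2 (chr2:148042877-148046969), a pioneer factor of endoderm and floor plate, had no count in DMSO, 16.5 and 15.5 CPM in RA and 0.605 and 1.02 in SE KO RA (log2 fold change -4.28 ± 0.35, edgeR adjusted p = 9.78e-10). Foxq1 fell from 2.16 and 1.77 to 0.233 and 0.381 CPM and Cubn, an endocytic receptor of visceral endoderm, from 4.67 and 5.73 to 1.54 and 1.57, while its partner Amn rose from 0.705 and 0.792 to 3.07 and 2.83 and Thbd from 0.749 and 0.512 to 3.304 and 2.92. Basement-membrane genes of this lineage, Lamc1 at 718 and 783 CPM in RA against 636 and 639 in SE KO RA and Sparc at 320.3 and 337 against 229 and 226, were not called. Trophectoderm genes were mixed, with 4 of 20 called higher and 2 lower: Hand1 had 0.352 and 0.838 CPM in RA and 2.05 and 2.37 in SE KO RA, and Plac1, a placental gene, had 0.661 and 0.885 against 0.1396 and 0.0423. Without SE KO RA replicate 2, 2 were called higher.

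Neural genes were called higher more often than lower. Of 29 tested, 8 were higher and 3 lower, with a median of 0.31, while 6.57% of all genes were higher and 11% lower. Sox1, the earliest neuroectoderm factor, rose from 3.88 and 4.19 to 15.5 and 13.5 CPM (log2 fold change 1.85 ± 0.24, edgeR adjusted p = 4.05e-07), with DMSO at 5.16 and 4.11. Stmn3, a microtubule regulator of neurons, rose from 0.661 and 0.978 to 9.96 and 9.44 CPM, Ncam1, an adhesion molecule, from 15.6 and 14.3 to 51.98 and 49.9, and Irx3, a patterning factor, from 7.36 and 7.13 to 24.3 and 22.4. For Stmn3 and Ncam1 the SE KO RA level was near that of DMSO, at 7.602 and 9.32 and 62.6 and 60.3 CPM, whereas Irx3 had 0.567 and 0.987 there. The general neuronal genes Tubb3 and Nes gave -0.02 and 0.70 without a call. Neurod1, called lower in the full fit, was at 0.31 on the log2 scale without RA replicate 2, and the other lower calls were not all kept there.

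Mesoderm, neural crest and mesenchyme genes held calls both ways. Of 19 mesoderm and cardiovascular genes, 5 were called higher and 3 lower, and of 14 neural crest and mesenchyme genes 4 were higher and 2 lower. The shares over all genes were 6.57% higher and 11% lower. Without RA replicate 2 the mesoderm list held 3 higher calls, and without RA replicate 2 or SE KO RA replicate 2 the crest list held 1 lower call. Foxc2, a mesenchymal and vascular factor, rose from 0.837 and 0.606 to 5.03 and 6.35 CPM, while Cdh5, the endothelial cadherin, fell from 4.41 and 4.89 to 1.07 and 0.931 and Mef2c from 1.98 and 2.47 to 0.698 and 0.212. Sox9 (chr11:112782224-112787760), a regulator of crest and chondrocytes, was near 0 in DMSO. It was at 39.3 and 39.2 CPM in RA and lower in SE KO RA, at 8.14 and 7.998 (log2 fold change -2.28 ± 0.21, edgeR adjusted p = 2.31e-09). Prrx2, in contrast, rose from 6.56 and 6.89 to 19.03 and 19.04. Among mesendoderm and Nodal genes, 3 of 16 were higher and 2 lower, and 1 was higher without RA replicate 1 or SE KO RA replicate 1: Lefty1, a Nodal inhibitor, fell from 119 and 118 to 44.4 and 46.6 CPM, and Nodal, at 114 and 118 against 60.9 and 60.5, was not called. Markers of fibroblasts summed to 165 and 187 CPM in RA, 189 and 175 in SE KO RA and 62.9 and 64.8 in DMSO. Of 10 of them tested, 1 was called higher and 3 lower, with Col1a1 higher and Col1a2, Col5a2 and Thy1 lower. Thy1 lost its call with a scaling factor per chromosome (-0.89), without RA replicate 2 (-0.92) and without SE KO RA replicate 2 (-0.95), which left 2 lower calls in the list. The part of these markers in the other results was not tested.

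Of 13 hedgehog pathway genes, 3 were called lower, 1 higher and 9 neither way, while 11% of all genes were called lower. Ptch1 (chr13:63508328-63573598), the receptor and classical target of the pathway, was 668 and 662 CPM in RA, 94.4 and 97.2 in SE KO RA and 54.2 and 56.6 in DMSO (log2 fold change -2.79 ± 0.09, edgeR adjusted p = 9.73e-19). Gli1, a transcription factor and target, fell from 59.5 and 61.9 to 17.7 and 19 CPM. Gli2 fell from 80.7 and 85.9 to 40.2 and 38.6 CPM and the signal transducer Smo rose from 40.97 and 42.3 to 84.7 and 94.1, and both lost their call with a scaling factor per chromosome (-0.72 and 0.95). In Dux KD RA, Ptch1 was at 149 and 151 CPM and Gli1 at 12.98 and 14.3.

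BMP and TGF-β genes moved in both directions, while over all genes 6.57% were called higher and 11% lower. Of 25 tested, 8 were called lower and 2 higher, with a median of -0.29, but with a scaling factor per chromosome 5 were lower and 3 higher, and 5 were lower without RA replicate 2 or either SE KO RA library. Id1, a direct BMP target that blocks differentiation factors, rose from 12.1 and 11.97 to 51.7 and 49 CPM (log2 fold change 2.07 ± 0.11, edgeR adjusted p = 8.03e-14), and the ligand gene Bmp7 from 17 and 18.5 to 45.4 and 42.02. Inhbb, an activin subunit, fell from 81.98 and 85.7 to 17.5 and 19.5 CPM (log2 fold change -2.18 ± 0.12), and the ligand Tgfb2 fell from 3.35 and 3.59 to 0.745 and 0.931 and the activin antagonist Fst from 1.81 and 2.93 to 0.605 and 0.931. Bmp7 was at 0.98 on the log2 scale with a scaling factor per chromosome.

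WNT, FGF, Notch and LIF components were described in the same way. Over all genes, 6.57% were called higher and 11% lower, and several counts below are near or under these shares. Of 27 WNT genes, 5 were called higher and 2 lower: the ligands Wnt7b, from 0.705 and 0.652 to 6.47 and 6.05 CPM, and Wnt11, from 1.15 and 0.838 to 3.58 and 4.19, rose, and Notum, a secreted WNT inactivator, fell from 7.49 and 8.15 to 2.28 and 2.45. Only 1 WNT gene was called lower without RA replicate 2 or either SE KO RA library. Besides Notum, the ligand Wnt3a was called lower in the full fit. Its call was lost with a scaling factor per chromosome (-4.45) and without any 1 of the 4 libraries. Fzd5, Fzd7 and Sfrp1 were not called, at -0.93, 0.13 and 0.99 on the log2 scale. Among 26 FGF and ERK genes 4 were higher and 1 lower: Egr1, an immediate early gene, rose from 7.88 and 6.89 to 15.8 and 19.8 CPM, and Etv5, an ERK target, fell from 199 and 214 to 64.9 and 64.6 (log2 fold change -1.68 ± 0.10, edgeR adjusted p = 2.67e-13). Of 13 Notch genes 3 were higher and 0 lower, namely the ligand Dll1, from 2.995 and 3.07 to 13.6 and 13.8 CPM, and the Fringe glycosyltransferases Mfng, from 4.85 and 5.22 to 16.4 and 14.9, and Lfng, from 1.67 and 1.35 to 3.68 and 4.15. The receptors Notch1, Notch2 and Notch3 gave 0.82, 0.10 and 0.14 without a call.

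In the pathway of LIF, which the medium contained, Stat3, its transcription factor, was not called. It was at 182 and 191 CPM in RA and 180 and 186 in SE KO RA, and the feedback target Socs3 at 183 and 191 against 223 and 215. Of 17 genes 2 were called higher and 3 lower (all genes: 6.57% higher, 11% lower). Those higher were Junb, from 16.96 and 17.4 to 49.8 and 52.05, and Socs2, from 13.8 and 12.6 to 28.7 and 30.6. Those lower were the naive factors Klf4, Klf5 and Tfcp2l1 again. Of 10 Hippo and YAP genes 2 were higher and 2 lower: Ccn2, a YAP target, rose from 5.07 and 5.08 to 10.7 and 11.8 CPM, and the transcription factor Tead1 fell from 295 and 291 to 123 and 126. Without RA replicate 1, 1 gene of this list was called higher.

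**Figure D5:**
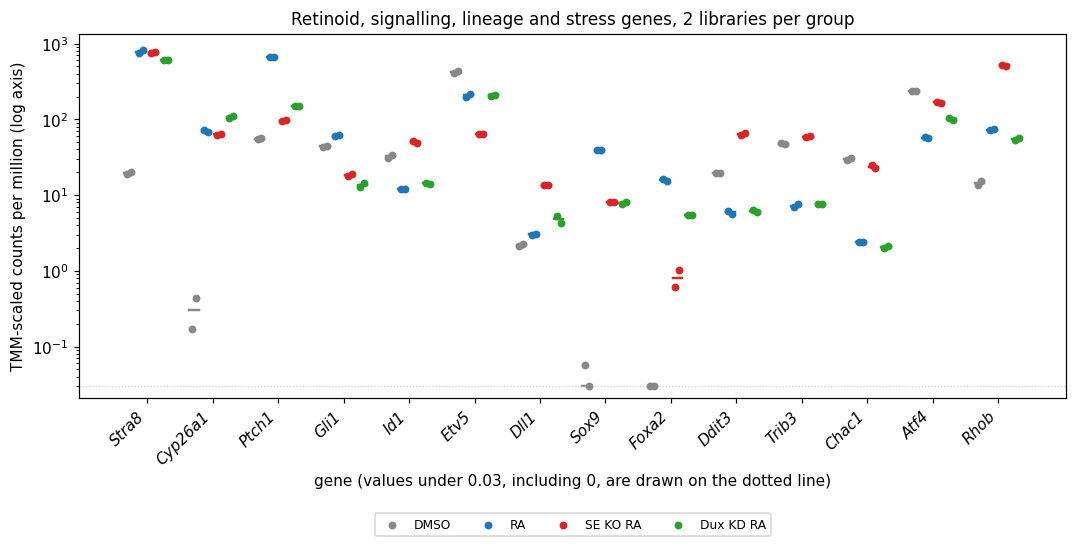
Expression (vertical log axis, TMM-scaled CPM) of retinoid, signalling, lineage and stress genes (horizontal axis) in DMSO (grey), RA (blue), SE KO RA (red) and Dux KD RA (green), with 1 point per library and a bar at the mean of 2. Stra8 and Cyp26a1 lie above DMSO in RA and SE KO RA and were not called between them, Ptch1, Gli1, Etv5, Sox9 and Foxa2 are lower in SE KO RA, and Id1, Dll1, Ddit3, Trib3, Chac1, Atf4 and Rhob are higher.

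Genes of the integrated stress response were called higher. This response, in which phosphorylated eIF2α favours translation of the factor ATF4, induces genes of amino acid supply and of cell death. Of 16 members, 8 were called higher and 0 lower, with a median of 0.93 (6.57% of all genes were called higher). Ddit3 (chr10:127290774-127296288), which encodes CHOP, was at 6.21 and 5.68 CPM in RA and 61.3 and 66.5 in SE KO RA (log2 fold change 3.42 ± 0.13, edgeR adjusted p = 6.99e-17), above its 19.3 and 19.3 in DMSO. Chac1, a glutathione-degrading enzyme, rose from 2.38 and 2.38 to 25.03 and 22.5 CPM (log2 fold change 3.32 ± 0.20), and Trib3, a pseudokinase that damps the response, from 6.87 and 7.59 to 58.03 and 59.9. Atf4 itself rose from 57.7 and 56.5 to 168 and 167 and Atf3 from 5.51 and 4.94 to 23.2 and 22.8. In DMSO, Chac1 stood at 29.5 and 30.4, Trib3 at 48.1 and 47.9 and Atf4 at 240.4 and 237 CPM, so for these the RA libraries were low against DMSO and the SE KO RA libraries nearer to it. Asns and Psat1, which make asparagine and serine, were not called, at 0.35 and 0.53. With a scaling factor per GC bin, chosen after the data were seen, 6 of the 16 were called higher.

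The promoters of this list were searched for TGATGNAA, the letters of the C/EBP-ATF element that ATF4 binds with C/EBP partners, on both strands in the 250 bases before each start (RefSeq, GRCm38.p6). Of 15 members with an entry, 5 held a match (Asns, Atf3, Chac1, Slc7a11 and Vldlr), against 3.45% of 32851 promoters, and of these Asns and Slc7a11 were not called, while Ddit3 and Trib3 were called without a match in this window. The list was counted by gene and the 3.45% by promoter entry, so these shares are in unlike units. Slc7a11 and Vldlr were named for the match only. The windows of 2 genes that rose are shown, 5′ to 3′ on the gene's strand, with the match in capitals.
Atf3 (chr1:191183410-191183469, minus strand): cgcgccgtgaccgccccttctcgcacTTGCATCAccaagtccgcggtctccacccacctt
Chac1 (chr2:119351023-119351082, plus strand): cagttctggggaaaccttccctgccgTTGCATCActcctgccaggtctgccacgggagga
Both matches lie on the strand opposite to the gene, and they are a description of these letters only.

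The genes described next were named for their size of change, by fold or by CPM difference. Cyp24a1 (chr2:170482708-170497145), the enzyme that inactivates vitamin D, had 0.441 and 0.279 CPM in RA and 13.7 and 12.8 in SE KO RA (log2 fold change 5.17 ± 0.45, edgeR adjusted p = 6.02e-10), with DMSO at 0.284 and 0.493 and Dux KD RA at 0.517 and 0.295. Rhob, a small GTPase, rose from 72.3 and 73.8 to 529 and 514 CPM, Txnip, an inhibitor of thioredoxin and glucose uptake, from 317 and 318 to 1560 and 1482, and Scd1, a fatty acid desaturase, from 336 and 360 to 1208 and 1257. Car4, a carbonic anhydrase, went from 1.98 and 1.86 to 24.7 and 23.6 CPM and the water channel Aqp5 from 0.793 and 0.745 to 12.5 and 14.98. Among genes that fell, the collagen receptor Ddr2 (chr1:169972307-170110762) went from 86.1 and 85.2 to 2.47 and 1.904 CPM (log2 fold change -5.29 ± 0.15, edgeR adjusted p = 1.47e-19), the vascular factor Sox18 from 17.2 and 20.8 to 0.465 and 1.02, the oocyte gene Khdc3 from 23.3 and 24.1 to 0.884 and 1.44, and Sgk1, a serum-induced kinase, from 769 and 745 to 153 and 152. Sox18 in DMSO was at 0.851 and 0.932, near its SE KO RA level, while Ddr2 in DMSO was at 0.1702 and 0.493.

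Glycolysis genes rose in part. Of 24, 4 were called higher and 0 lower (all genes: 6.57% higher, 11% lower), with a median of 0.56. Aldoa, a glycolytic enzyme, rose from 1781 and 1845 to 4117 and 3927 CPM, a log2 fold change that was 0.98 with a scaling factor per GC bin. Pfkfb3, which sets the flux of the pathway, rose from 31.3 and 35.4 to 92.97 and 97.9, and Ankrd37, a hypoxia-inducible gene, from 3.44 and 4.52 to 16.3 and 18.96. Gapdh lost its call without RA replicate 2 (0.99), and its 2 RA libraries differed, at 1025 and 713 CPM. Pkm, Ldha and Slc2a3 were not called.

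The knockdown of Dux under the same RA treatment was compared with the knockout directly. SE KO RA against Dux KD RA called 2340 genes higher (11.2% of those tested) and 3571 lower (17%). The 2C list had 27 genes lower in SE KO RA than in Dux KD RA and 1 higher, with a median of -2.05. Zscan4d stood at 233 and 224 CPM in Dux KD RA against 26.7 and 24.6 in SE KO RA (log2 difference -3.16, edgeR adjusted p = 1.29e-16). Usp17la stood at 25.6 and 23.5 CPM in Dux KD RA, between its levels in RA and in SE KO RA (log2 difference -1.76, edgeR adjusted p = 1.30e-11). The naive list had 15 genes lower in SE KO RA and 1 higher, with Esrrb at 386 and 377 CPM and Klf4 at 243 and 237 in Dux KD RA. Of the stress genes 9 of 16 were higher in SE KO RA and 1 lower, with Ddit3 at 6.26 and 6.07 CPM and Chac1 at 2.01 and 2.12 in Dux KD RA. Ptch1, Gli1, Gli2 and Sox9 were not called between the lines, and the log2 differences were -0.65 ± 0.09, 0.43 ± 0.18, 0.04 ± 0.11 and 0.04 ± 0.23 (SE).

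The knockout effect under RA was also tested against the knockout effect under Dux OE and under PlaB, which share no library with it. The RA arm differs from these arms in inducer, duration and the chromosome medians of its SE KO libraries. The parts of these cannot be told apart. Against Dux OE, 1833 genes had a higher effect under RA (8.75% of those tested) and 2533 a lower one (12.1%). In the 2C list 25 of 39 effects were lower under RA and 1 higher, and in the naive list 13 of 20 were lower and 1 higher. For Zscan4d the libraries had 1660 and 1707 CPM in Dux OE and 742 and 613 in SE KO Dux OE, and the effect under RA minus that under Dux OE was -2.03 ± 0.17 on the log2 scale (edgeR adjusted p = 3.00e-10). For Esrrb these levels were 985 and 973 CPM against 978 and 1044, with a difference of -2.49 ± 0.13, and for Ddit3 11.7 and 12.98 CPM against 8.36 and 7.49, with a difference of 4.06 ± 0.19. In the Tdpoz list, 0 effects were called different from those under Dux OE by edgeR, with most members near the floor under RA. Against PlaB, 4330 effects were higher (20.7%) and 5938 lower (28.3%), but with a scaling factor per chromosome 5262 were higher and 5010 lower, and with one per GC bin 5388 and 4999, so the larger side turned with the scaling. The 2 SE KO PlaB libraries differed from each other with a chi-square of 34.1 per degree of freedom, against 2.86 in SE KO RA. In the 2C list 11 effects were lower under RA and 4 higher, and for Zscan4d the difference was 0.83 ± 0.16 (edgeR adjusted p = 8.49e-05).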

How the data were processed

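The deposited table holds raw read counts per gene for 26 libraries. Per the labels, the authors made poly(A) libraries with the NEBNext Ultra II kit, and the submitters' processing notes name FastQC, Trimmomatic, STAR, featureCounts, DESeq2 and mm10. Their versions and the strand setting were not given in the sources used here, so reads of overlapping antisense genes cannot be separated. Samples were grouped by title.

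All 26 libraries in 13 groups were fitted in 1 edgeR 4.0.16 quasi-likelihood model (R 4.3.3, TMM factors, prior count 0.125), after edgeR's own filter on low counts left 20953 of 55291 genes. The p-values of all tested genes were adjusted by the Benjamini-Hochberg method, and a call needed a value under 0.05 with at least 2-fold change. No label says that replicates came from separate cultures, so p-values measure only the spread between these samples. Library totals lay between 14401452 and 39402840 counts.

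The members and lists were chosen with earlier results of these data known. After the table was read, Cyr61 and Ctgf were renamed Ccn1 and Ccn2 and the Spopm symbols removed from the lists. The promoter search was chosen after the values of its list were seen. Named genes were the targeted and Dux genes, up to 6 called and 3 uncalled members of each of 34 lists, the 12 genes each way with the largest fold at a mean of at least 2 CPM, and the 8 each way with the largest CPM difference. Alternatives were other scalings, filters and sets of libraries, DESeq2 1.42.0, a replicate block and each library left out. On simulated counts for SE KO RA against RA (21090 genes), 48% of 2-fold and 100% of 3-fold changes were called in the right direction. With chromosome shifts added (21083 genes), 50% and 94% were, and 44% and 92% with a scaling factor per chromosome. Each share is of 50 genes. A 2-fold change sits at the minimum fold for a call. The median log2 sizes estimated for it were 1.006, 0.987 and 0.966 in these 3 runs. Recovery was not split by chromosome or by expression level, so recovery among low-count genes was not tested. Promoter sequences are from RefSeq on GRCm38.p6. Gene positions are those of the deposited table. Some genes of the lists are not reported here by name.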

Additional observations from a re-analysis of the deposited data

Results flagged for a closer look

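The SE KO effect differed between the RA arm and the Dux OE and PlaB arms by a test of the difference itself (edgeR interaction term). It was higher under RA than under Dux OE for 1833 genes and lower for 2533, and 158 of the 289 named genes were among them. Against PlaB, 4330 effects were higher under RA and 5938 lower, with 193 named genes among them, but higher effects outnumbered lower ones with a scaling factor per chromosome (5262 and 5010) and per GC bin (5388 and 4999). Between SE KO RA and Dux KD RA, 2340 genes were higher and 3571 lower in SE KO RA, including 171 named genes. The chromosome medians of the SE KO RA libraries differ from those of the other libraries labelled SE KO. The parts of inducer, duration and cells therefore cannot be told apart in the comparisons with the Dux OE and PlaB arms. With a scaling factor per chromosome the difference from Dux OE gave 1633 higher and 2365 lower, and SE KO RA against Dux KD RA gave 2127 and 3554.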

How the results depend on the processing

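With an adjusted p under 0.05 and no minimum fold, 4467 genes were higher and 5176 lower in SE KO RA. Against untreated ESC in place of DMSO, 3286 genes were lower in SE KO RA. Leaving out each library in turn gave 1131 to 1194 higher and 1858 to 2048 lower for SE KO RA against RA, 1675 to 1756 and 2193 to 2384 for the difference from Dux OE, 3977 to 4145 and 5800 to 5926 for that from PlaB, 2160 to 2336 and 3095 to 3681 against Dux KD RA, 4000 to 4382 and 2008 to 2188 for RA against DMSO, and 3367 to 3627 and 1925 to 2097 for SE KO RA against DMSO. Neurod1 ran from -3.25 to 0.31 when each library was left out, the latter without RA replicate 2. Of 188 named genes called, 135 kept direction and call under every alternative in which they passed the filter. A gene filtered out of an alternative was not counted as changed there. The causes of the other changes were not tested. The replicate numbers did not pair the samples (correlation of deviations -0.025), and a fit with the replicate number as a block gave 1361 higher and 2277 lower and changed no named gene's call. The alternatives by chromosome and by GC bin were chosen after the data were seen. Counts near 3 per library limit the Tdpoz genes.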

Other observations

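Germline genes held 10 lower calls and 0 higher among 32 tested (all genes: 11% lower, 6.57% higher), with a median log2 fold change of -0.57 (all genes: -0.04). Of them, 12 were called higher in RA than in DMSO and 2 lower (all genes: 20.6% and 10.4%). Tex19.1, a gene that restrains retrotransposons, fell from 63.7 and 61.4 CPM in RA to 14.6 and 14.5 in SE KO RA, the X-linked homeobox gene Rhox6 from 4.76 and 4.38 to 0.698 and 0.635 and Prdm1, a germ cell specifier, from 5.903 and 5.92 to 1.303 and 1.10. Asz1, a germ granule gene, had 0.793 and 0.233 CPM in RA and no count in SE KO RA. Among 36 imprinted genes 4 were called higher and 7 lower: H19 fell from 3.44 and 3.40 to 0.326 and 0.254 CPM and Zdbf2 from 136 and 144 to 40.2 and 40.9, while Dlk1 rose from 5.903 and 6.52 to 19.03 and 18.8. With DESeq2 the call of Dlk1 was lost (1.61) and 2 imprinted genes were higher. Among 14 genes of DNA methylation 1 was higher and 3 lower, with Tet1, a 5-methylcytosine oxidase, at 134 and 127 CPM in RA against 47.8 and 51.5 in SE KO RA and Zfp57, which protects imprints, at 103 and 108 against 37.04 and 37.6.

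Of 41 collagen genes 11 were called lower and 4 higher (7 lower without RA replicate 2 or SE KO RA replicate 2), with Col5a2 falling from 19.9 and 22.2 to 3.07 and 3.09 CPM and Col6a4 from 2.51 and 2.65 to 0.233 and 0.254, while Col1a1 rose from 7.004 and 9.64 to 23.9 and 21.9. Antigen presentation and interferon genes held 4 higher calls and 1 lower among 18: Tap2, a peptide transporter subunit, rose from 0.441 and 0.838 to 5.398 and 4.401 CPM and Tap1 from 10.2 and 10.8 to 26.3 and 27.3. Tap1 and Tap2 lie on chromosome 17, whose median was 0.29. Beside the lists of this paragraph, 6.57% of all genes were called higher and 11% lower. In adhesion genes 1 of 22 was higher and 2 lower (1 lower without RA replicate 2), with Cdh1 at 387 and 404 against 426 and 438 CPM, and in cell cycle genes 1 of 21 was higher and 1 lower, with Cdkn2c rising from 2.95 and 2.38 to 11.4 and 9.18 and Cdk6 falling from 19.5 and 16.2 to 6.096 and 4.36. None of the 8 Y-linked genes on the list passed the filter, and their summed CPM was 0 in each RA, SE KO RA and DMSO library.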
